A study of Mus musculus with 4 samples.

Results

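The genes described are 9 components of Notch signalling, namely the receptor genes *Notch1*, *Notch2* and *Notch3*, the nuclear partners *Rbpj* and *Maml1*, and the target genes *Hes1*, *Nrarp*, *Dtx1* and *Ptcra*. They were chosen by symbol for the role of the pathway in starting the T lineage, and all 9 had a row among the 23361 genes of the deposited table. Whole transcriptome sequencing covered early T lineage progenitors (ETP) of female C57BL6 mice, with 2 libraries from old mice of 72 weeks and 2 from young mice of 4 to 6 weeks. The deposited table names the old condition 20m, which does not match 72 weeks. The old mice were purchased from another supplier than the young mice, so age and source cannot be told apart. No mutation or treatment was applied to either age. ETP were sorted from thymus as Lin- CD44+ CD25- CD117+ cells and lysed directly. The old libraries held 11816478 and 4839341 fragments, and the young libraries 16658864 and 6414915, so that library 1 was the deeper at each age. It is not stated if an age was sampled from different mice for its 2 libraries, so the p-values reflect library-to-library spread, part of which may be technical. The libraries also differed by number. In library 2 of both ages, 6 genes had at least 50 fragments against at most 1 in library 1, heart muscle genes *Actc1*, *Myh7*, *Nppa* and *Tnnt2* among them, and 5 genes showed the opposite. The old over young ratio is therefore also given within each library number.

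Notch receptors are membrane proteins that are cut when a ligand of the Delta or Jagged family on a neighbouring cell binds them. The released intracellular part enters the nucleus, joins the DNA-binding protein RBPJ and a Mastermind coactivator, and turns on genes such as *Hes1*. In the thymus, the Delta ligand DLL4 on epithelial cells engages NOTCH1 on incoming progenitors, and this signal is required for the T cell fate.

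Of the 9 genes, 8 had a promoter entry in the RefSeq table of GRCm38.p6. *Hes1* had none, so its promoter was not searched. In the other 8, the 250 bases before each start were searched for the core letters bound by RBPJ, TGGGAA, on both strands (TTCCCA on the other). Of these 8, only *Rbpj* and *Ptcra* held them, with 2 matches each. Among all 32851 promoters of that length, 21.6% held at least 1 and 2.77% at least 2. The windows of both genes are shown with that of *Notch1*, the receptor with the highest level, which had no match. Matches are in capitals. In *Rbpj* they lay 149 to 144 bases and, on the other strand, 65 to 60 bases before the start, and in *Ptcra* 84 to 79 and 32 to 27 bases before it. *Ptcra* also held the E box CAGCTG at 60 to 55 and at 49 to 44 bases before its start, a motif present in 13.0% of all promoters. A second annotated start of *Rbpj*, with an overlapping window, held 1 match.
*Rbpj* (chr5:53590096-53590345, plus strand): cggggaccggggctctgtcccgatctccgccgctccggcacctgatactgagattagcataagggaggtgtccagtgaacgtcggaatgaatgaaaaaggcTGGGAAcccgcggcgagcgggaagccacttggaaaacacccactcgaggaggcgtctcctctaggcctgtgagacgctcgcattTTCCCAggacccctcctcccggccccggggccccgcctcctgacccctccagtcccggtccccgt
*Ptcra* (chr17:46763713-46763962, minus strand): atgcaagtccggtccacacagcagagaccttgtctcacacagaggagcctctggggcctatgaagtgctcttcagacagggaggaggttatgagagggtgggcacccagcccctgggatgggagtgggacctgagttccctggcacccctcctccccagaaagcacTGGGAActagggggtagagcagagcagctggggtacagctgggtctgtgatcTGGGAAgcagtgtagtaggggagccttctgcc
*Notch1* (chr2:26503823-26504072, minus strand): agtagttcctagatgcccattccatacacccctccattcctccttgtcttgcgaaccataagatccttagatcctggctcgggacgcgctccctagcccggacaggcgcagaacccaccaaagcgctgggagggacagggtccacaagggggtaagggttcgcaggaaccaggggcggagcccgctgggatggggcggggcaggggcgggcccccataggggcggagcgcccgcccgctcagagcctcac

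Per transcript length, *Notch1* had the highest level of the 9 genes and *Ptcra* was listed at 0. In FPKM, fragments scaled by the authors for transcript length and depth, *Notch1* averaged 39.1 over the 4 libraries, which placed it at the 94.1th percentile of the 10080 tested genes. *Notch2* followed at 16.5 FPKM, *Rbpj* at 13.8 and *Hes1* at 13.2. *Maml1* averaged 6.82, *Nrarp* 3.45, *Dtx1* 1.06 and *Notch3* 0.166 FPKM. Each of *Hes1*, *Maml1*, *Nrarp* and *Dtx1* stood above the gene next below it in 4 of 4 libraries. The neighbours *Notch1* and *Notch2*, and *Notch2* and *Rbpj*, kept their order in 3 of 4 libraries, and *Rbpj* stood above *Hes1* in only 2. Such orders are taken within a library. Despite the scaling for depth, FPKM summed over all genes was 230420 and 122998 in old ETP, against 281542 and 135313 in young ETP. Library 1 thus had the larger total at each age. FPKM are therefore not on a common scale between libraries, and means of FPKM weigh library 1 more.

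**Figure D1:**
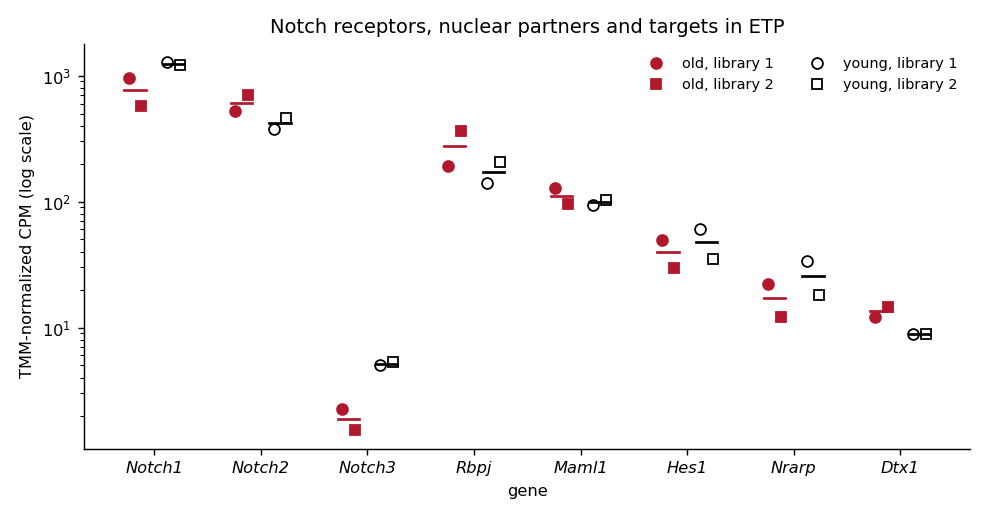
Levels in TMM-normalized CPM (log scale) of 8 genes of the pathway, where filled symbols are old and open symbols young ETP, circles are library 1 and squares library 2 of an age, and bars are means of 2 libraries. *Notch1* and *Notch3* lie lower in both old libraries and *Notch2* and *Dtx1* higher, while the ages overlap for the other 4 genes, and *Ptcra* is at 0 in every library and is not drawn.

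Among the receptors, *Notch1* and *Notch3* had lower and *Notch2* higher levels in both old libraries. For the comparison of ages, fragments were scaled to CPM, counts scaled to a common depth, on library sizes normalized by TMM. *Notch1* encodes the receptor that commits thymus-settling progenitors to the T lineage and lies on chromosome 2 from 26457903 to 26516663 (minus strand, GRCm38). It was at 963 and 577 CPM in old ETP (libraries 1 and 2), against 1273 and 1204 CPM in young ETP. Both old libraries lay below both young libraries, and the old libraries differed from each other far more than the young ones. The log2 fold change of *Notch1*, old over young, was -0.69 (standard error 0.35). Within library number, the old over young ratio of *Notch1* was 0.756 for number 1 and 0.479 for number 2. In bulk RNA, fewer cells expressing a gene and less RNA per cell cannot be told apart.
*Notch2* encodes a receptor best known for its roles in splenic B cells and dendritic cells and lies on chromosome 3 from 98013527 to 98150361 (plus strand). Its levels were 526 and 696 CPM in old ETP, against 380 and 457 CPM in young ETP. Old library 2, which had the lowest *Notch1* level, had the highest *Notch2* level. The log2 fold change of *Notch2* was 0.55 (standard error 0.29), and its old over young ratio was 1.39 within number 1 and 1.52 within number 2.
*Notch3*, a receptor gene that is itself a Notch target in later thymocytes, was at the edge of detection. It had 27 and 7 fragments in old ETP, against 86 and 33 in young ETP, or 2.24 and 1.53 CPM in old and 5.03 and 5.29 CPM in young ETP. The ages did not overlap, and the old over young ratio was 0.446 within number 1 and 0.289 within number 2. Only genes that reached an FPKM of 1 in 2 or more libraries were tested, and *Notch3* did not. With no filter on low values its log2 fold change was -1.41 (standard error 0.71, edgeR adjusted p = 0.653).

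The balance of the 2 main receptors differed between the ages in every library. The ratio of *Notch1* to *Notch2* in a library does not depend on the scaling between libraries. In FPKM it was 2.03 and 0.919 in old ETP, against 3.72 and 2.92 in young ETP. Old library 2 was the only library with more *Notch2* than *Notch1*. On the log2 scale the ratio averaged 0.45 ± 0.81 in old and 1.72 ± 0.25 in young ETP (SD, n = 2 libraries each), a difference of -1.27. A two-sided exact permutation test gave p = 0.333, which is the smallest p that 2 libraries against 2 allow. Without old library 2 the difference was -0.70, and without old library 1 it was -1.84. *Notch4*, a receptor gene known mainly from blood vessels and outside the 9, reached 1.15 and 1.66 FPKM in old ETP, against 0.148 and 0.259 FPKM in young ETP. Of the FPKM of all 4 receptor genes, *Notch1* made up 65.6% and 45.4% in old and 78.4% and 73.8% in young ETP.

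**Figure D2:**
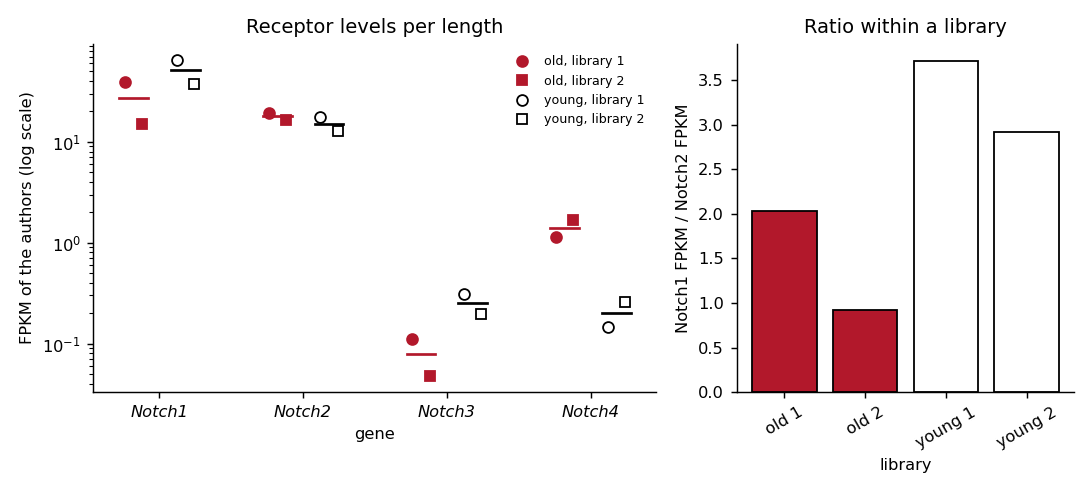
FPKM (log scale) of the 4 Notch receptor genes in each library, with bars for means of 2 libraries, and the ratio of *Notch1* to *Notch2* FPKM within each library. The ratio is 2.03 and 0.919 in the old and 3.72 and 2.92 in the young libraries, and on the FPKM scale the ages overlap for *Notch1* and *Notch2* taken alone but not for *Notch3* and *Notch4*. FPKM totals differ between libraries, which affects the levels but not the ratio.

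Of the nuclear partners, *Rbpj* had the larger difference between ages. *Rbpj* encodes the DNA-binding protein through which all Notch receptors act, on chromosome 5 from 53466152 to 53657362 (plus strand). It was at 191 and 365 CPM in old ETP, against 140 and 205 CPM in young ETP. The ages overlapped, since young library 2 lay above old library 1, and library 2 was the higher at each age. The log2 fold change of *Rbpj* was 0.69 (standard error 0.41), and 0.12 without old library 2. Within library number the old over young ratio of *Rbpj* was 1.36 and 1.78. In FPKM, which is not on a common scale between libraries, both old libraries (14.0 and 16.9) stood above both young libraries (12.8 and 11.3). *Maml1* encodes a Mastermind coactivator that joins the Notch and RBPJ complex, on chromosome 11 from 50255634 to 50292311 (minus strand). It was at 128 and 95.2 CPM in old ETP, against 93.3 and 104 CPM in young ETP. The levels overlapped, and the ratio of *Maml1* within library number was 1.37 for number 1 and 0.919 for number 2. Its log2 fold change of 0.18 (standard error 0.28) took the other sign on the FPKM scale and without old library 1.

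The target genes split, with lower estimates for *Hes1* and *Nrarp* and a higher one for *Dtx1* in old ETP. *Hes1* encodes a repressor that is a direct target of NOTCH1 in T cell progenitors, on chromosome 16 from 30064384 to 30067796 (plus strand). It was at 49.8 and 29.4 CPM in old ETP, against 60.9 and 34.8 CPM in young ETP. The ages overlapped, and library 1 stood 1.69 times above library 2 in old and 1.75 times in young ETP, more than the difference between ages. The log2 fold change of *Hes1* was -0.27 (standard error 0.42), and it turned to 0.02 without old library 2 and to 0.19 without young library 1. Within number the old over young ratio of *Hes1* was 0.817 and 0.846.
*Nrarp* encodes a small ankyrin repeat protein that is induced by Notch and limits its signal, on chromosome 2 from 25180758 to 25183339 (plus strand). It was at 22.1 and 12.2 CPM in old ETP, against 33.5 and 18.1 CPM in young ETP. As for *Hes1*, library 1 was the higher at each age, by 1.81 times in old and 1.85 times in young ETP. The log2 fold change of *Nrarp* was -0.58 (standard error 0.48), and -0.07 without young library 1. Its ratio within number was 0.66 and 0.674. Relative to *Notch1*, whose level was lower in old ETP, the FPKM of *Nrarp* was 0.0907 and 0.0827 in old ETP, against 0.104 and 0.0589 in young ETP, and these values overlapped. That of *Hes1* relative to *Notch1* was 0.393 and 0.379 in old ETP, against 0.366 and 0.215 in young ETP. These did not overlap, but only by 0.379 against 0.366, and the share of gene pairs that do not overlap was not counted.
*Dtx1* encodes a Deltex ubiquitin ligase that is a Notch target and a regulator of receptor traffic, on chromosome 5 from 120680202 to 120711927 (minus strand). It was at 12.2 and 14.6 CPM in old ETP, against 8.84 and 8.81 CPM in young ETP. Both old libraries stood above both young libraries, which were nearly equal. The log2 fold change of *Dtx1* was 0.60 (standard error 0.36), and the ratio within number was 1.38 and 1.66. In FPKM the ages overlapped, since *Dtx1* was lower in old library 2, at 1.00, than in young library 1. The FPKM totals of these libraries were 122998 and 281542, so the 2 values are not on a common scale. *Dtx1* rests on 147 and 67 fragments in old and 151 and 55 in young ETP.
*Ptcra* encodes the pre-T cell receptor alpha chain, which pairs with the beta chain at the later DN3 stage, on chromosome 17 from 46755663 to 46763712 (minus strand). It had 0 fragments in all 4 libraries. A count of 0 allows up to 3 fragments, or 0.249 and 0.654 CPM in old and 0.176 and 0.481 CPM in young ETP, for counting error only. Other genes of the steps after ETP were listed above 0 in the same libraries. The recombinase gene *Rag2*, chosen after its values were seen, was at 20.9 and 43.6 CPM in old ETP, against 47.0 and 96.7 CPM in young ETP. Its adjusted p was 0.977 by edgeR and 0.743 by DESeq2. The T cell receptor complex gene *Cd3e* went the other way, at 11.2 and 36.2 CPM in old ETP, against 3.34 and 2.88 CPM in young ETP (adjusted p = 0.379 by edgeR and 0.0014 by DESeq2). The DN2 and DN3 stage list had 8 tested genes, of which 5 were higher and 3 lower by estimate (median 0.34 on the log2 scale). Of the 5, *Cd3g* and *Cd2* reached an FPKM of 1 in the old libraries alone, so the filter admitted them only as higher in old ETP.

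None of the tested genes among the 9 passed the threshold. All but *Notch3* and *Ptcra* were tested, and edgeR (quasi-likelihood) called 0 of these 7 at a threshold of 0.05 (adjusted p = 0.999 for each), where it called 0% of all 10080 tested genes. At an unadjusted p below 0.05 there were also 0 of 7, against 5.57% of all tested genes (0.913% lower and 4.65% higher in old ETP). DESeq2 called 0 of 7, against 2.23% of all tested genes (0.149% lower in old ETP). With library number as a replicate block, a pairing that no source states, edgeR called 3 of 7, *Notch1* lower and *Notch2* and *Rbpj* higher, against 7.71% of all tested genes (1.97% lower in old ETP). With TMM scaling, all 4 libraries and the filter, and without the block, the smallest unadjusted p among them by edgeR was 0.105, for *Notch1*. The unadjusted p of *Notch1* was 0.043 by edgeR with no filter on low values (adjusted p = 0.631), 0.0975 by edgeR with median-of-ratios scaling and 0.0787 by DESeq2. Estimates were lower in old ETP for 3 and higher for 4, with a median log2 fold change of 0.18, beside -0.03, with 53.4% lower and 46.6% higher, over all tested genes. The CPM of the ages did not overlap for *Notch1*, *Notch2* and *Dtx1*, or 42.9% of the 7, while they did not overlap for 31.6% of all tested genes. In 6 of 7, all but *Maml1*, the old over young ratio had the same direction within both library numbers, which 67.1% of all tested genes share. On the FPKM scale the log2 fold changes were -0.98 for *Notch1*, 0.24 for *Notch2* and 0.32 for *Rbpj*, -0.51 for *Hes1*, -0.64 for *Nrarp*, 0.15 for *Dtx1* and -0.10 for *Maml1*, beside a median of -0.27 over all tested genes.

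**Figure D3:**
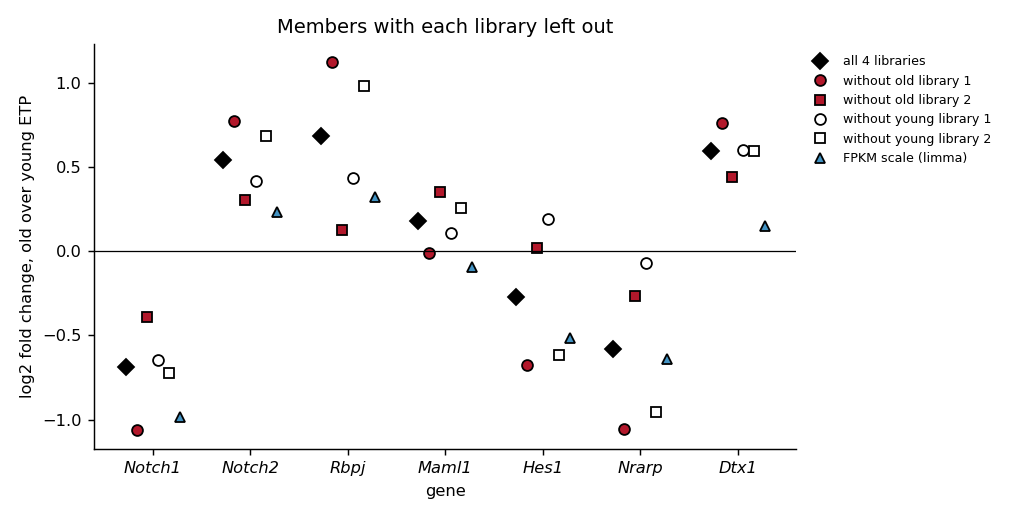
Log2 fold change, old over young ETP, of the 7 tested genes from all 4 libraries, with each library left out in turn, and on the FPKM scale. *Notch1* and *Nrarp* stay below 0 and *Notch2*, *Rbpj* and *Dtx1* above 0 in each setting drawn, while *Hes1* turns positive without old library 2 or young library 1 and *Maml1* turns negative without old library 1 and on the FPKM scale.

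The rest of the pathway was followed in 8 lists of 66 genes, of which 50 were tested. By edgeR 0 of 50 passed (smallest adjusted p = 0.358) and 4 had an unadjusted p below 0.05, beside 5.57% of all tested genes. DESeq2 called 2 of 50, beside 2.23% of all tested genes, and edgeR with the replicate block 4, beside 7.71%. The median log2 fold change of the 50 genes was 0.02, with 27 higher and 23 lower in old ETP. Those with an unadjusted p below 0.05 were *Notch4*, *Dtx4* and *Neurl1b* with higher levels and *Nedd4* with a lower level in old ETP, and those DESeq2 called were *Notch4* and *Dtx4*.
*Notch4* was at 19.3 and 44.2 CPM in old ETP, against 1.99 and 5.77 CPM in young ETP. Its log2 fold change was 3.08 (standard error 0.70), with an adjusted p = 0.382 by edgeR and 5.6e-04 by DESeq2. With a library left out it ran from 2.36 to 3.98. The old levels of *Notch4* rest on 232 and 203 fragments and the young ones on 34 and 36. *Notch4* reached an FPKM of 1 in the old libraries alone, so the filter admitted it only as a gene higher in old ETP. With no filter on low values its log2 fold change was also 3.08. *Dtx4*, another Deltex ubiquitin ligase gene, was at 43.0 and 47.5 CPM in old ETP, against 15.3 and 14.9 CPM in young ETP. Its log2 fold change was 1.58 (standard error 0.30), with an adjusted p = 0.358 by edgeR and 0.00348 by DESeq2. *Dtx4* had nearly equal levels in the libraries of an age, and its log2 fold change ran from 1.48 to 1.69 with a library left out.
*Neurl1b*, which encodes a ubiquitin ligase that acts on Notch ligands, was at 27.1 and 63.8 CPM in old ETP, against 14.5 and 13.6 CPM in young ETP (log2 fold change 1.69, standard error 0.48, and 0.92 without old library 2). *Nedd4*, a ubiquitin ligase gene with a high level in ETP, was at 764 and 717 CPM in old ETP, against 1114 and 1316 CPM in young ETP (log2 fold change -0.71, standard error 0.29).

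**Figure D4:**
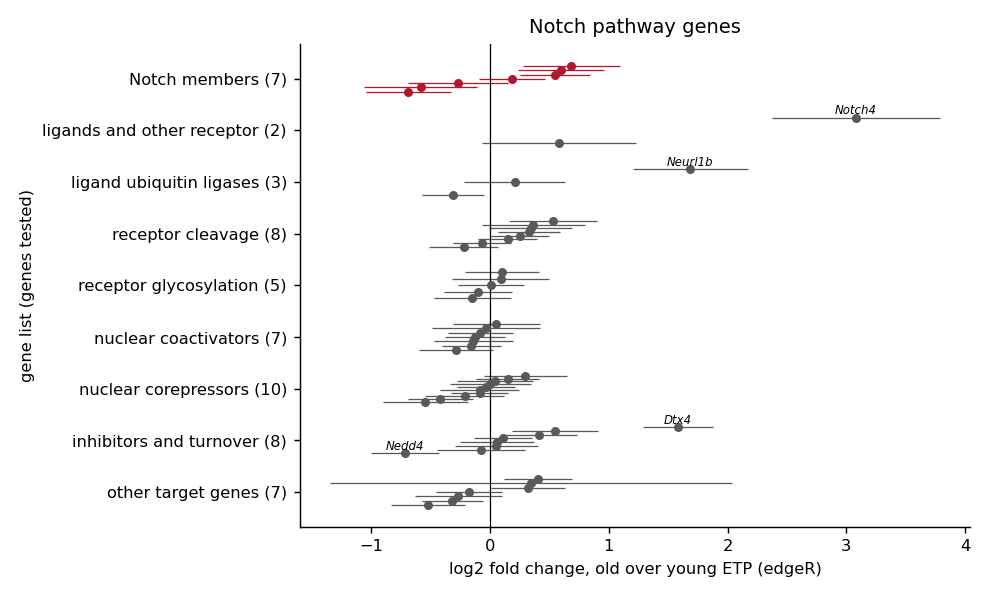
Log2 fold change, old over young ETP, with standard errors from edgeR for the tested genes of the 9 described (red) and of 8 other lists of the pathway (grey), with the number of genes tested in parentheses. *Notch4* at 3.08, *Neurl1b* at 1.69 and *Dtx4* at 1.58 lie to the right and *Nedd4* at -0.71 to the left, and the medians of the 6 lists without *Notch4* or *Neurl1b* lie between -0.18 and 0.29.

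The machinery that cuts the receptors had mostly higher and the coactivators mostly lower estimates, with no gene of either past the threshold. Over all tested genes 46.6% of estimates were higher and 53.4% lower in old ETP. Of 8 tested cleavage genes 6 were higher (median 0.29 on the log2 scale). *Psenen*, a gamma-secretase subunit gene, was at 61.0 and 58.6 CPM in old and 59.3 and 66.2 CPM in young ETP. *Ncstn*, the subunit that binds the substrate, was at 105 and 123 CPM in old and 84.1 and 97.9 CPM in young ETP, and *Furin*, a protease gene of receptor maturation, had a log2 fold change of 0.53, which was 0.023 without old library 1. Of 7 coactivator genes 6 were lower (median -0.13), with *Crebbp* at -0.08, *Ep300* at 0.05, *Maml3* at -0.28 and *Kat2a* at -0.16. Their standard errors, in the same order, were 0.27, 0.37, 0.31 and 0.25, each larger than the estimate. The 5 glycosylation genes centred on 0.01, with the fringe gene *Mfng* at -0.15, *Pofut1* at -0.10 and *Poglut1* at 0.01. Of 10 tested corepressor genes 6 were lower (median -0.06), with *Hdac1* at -0.03, *Hdac2* at -0.42 and *Cir1* at -0.55. *Cir1*, *Psenen*, *Ncstn*, *Furin*, *Dtx3l* and *Ccnd3*, and of the 9 genes *Notch1*, *Notch3*, *Maml1* and *Nrarp*, share exonic positions with a gene on the other strand, and *Notch2* and *Ep300* with one on the same strand. The sources do not say whether counting used strand, so these levels are uncertain to that extent.
Ligand genes were low in these cells. *Dll1*, *Dll4*, *Jag1* and *Dlk1* had 0 to 17 fragments per library and *Dll3* had 0 in all 4. *Jag2* was the only ligand gene tested, at 22.2 and 10.2 CPM in old ETP, against 16.2 and 5.45 CPM in young ETP, and its estimate of 0.58 turned to -0.08 without old library 1. Ligand ubiquitin ligase genes *Mib1* and *Mib2* had log2 fold changes of -0.31 and 0.21, and *Dtx3l* one of 0.06.
Of 12 further target genes 7 were tested, 3 higher and 4 lower in old ETP (median -0.18). *Myc*, a growth regulator and direct target, was at 424 and 402 CPM in old ETP, against 503 and 527 CPM in young ETP. *Tcf7*, which encodes the factor TCF1 that Notch induces at T lineage entry, was at 335 and 302 CPM in old and 313 and 408 CPM in young ETP, with a log2 fold change of -0.18. *Igf1r* had a log2 fold change of -0.52 and *Ccnd3*, a D cyclin gene, one of 0.41. The target gene *Hey1*, chosen after its values were seen, had 103 and 0 fragments in old ETP and 113 and 1 in young ETP, so that it was found in library 1 of each age.

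Markers of conventional dendritic cells, and some of NK and innate lymphoid cells, had higher levels in the old libraries, while other marker lists did not move one way. For conventional dendritic cells, 10 of 10 tested markers were higher in old than in young ETP by estimate, with a median of 4.01 on the log2 scale, and DESeq2 called 9. Over all tested genes 46.6% were higher by estimate, and DESeq2 called 2.23%. Of the 10 markers, *Zbtb46*, *Batf3*, *Ciita* and *Itgae* reached an FPKM of 1 in the old libraries alone. The filter thus admitted them only as genes higher in old ETP, and their direction adds nothing to the count. Of the others, DESeq2 called *Xcr1*, *Itgax*, *Clec9a*, *Cd74* and *H2-Eb1* but not *Ly75*. The summed level of the 11 listed markers was 4035 and 12830 CPM in old ETP, against 375 and 753 CPM in young ETP, with *Cd74* and *H2-Eb1* the most abundant per length and none of the 11 at 0 in any library. Old library 2 was the highest in this sum. Among the 9 genes, it was the highest in CPM for *Notch2*, *Rbpj* and *Dtx1* and the lowest for *Notch1*, *Notch3*, *Hes1* and *Nrarp*. It was neither for *Maml1*, and *Ptcra* was at 0. Of the 4 other pathway genes with an unadjusted p below 0.05 by edgeR, it was the highest for *Notch4*, *Dtx4* and *Neurl1b* and the lowest for *Nedd4*. The share of all tested genes that do the same was not counted. In young ETP, library 2 also lay above library 1 for *Notch2* and *Rbpj* and below it for *Notch1*, *Hes1* and *Nrarp*. For *Dtx1* and *Notch3* it did not, so part of this order follows the library number. Of 5 tested markers of NK and innate lymphoid cells 4 were higher in old ETP, and the sum of 12 was 366 and 344 CPM in old ETP, against 243 and 246 CPM in young ETP, with *Tbx21* at 0 in both young libraries. DESeq2 called *Ncr1*, *Il2rb* and *Gzmb* higher in old ETP (DESeq2 adjusted p = 2.4e-05, 1.0e-09 and 4.3e-06). Their log2 fold changes by edgeR were 5.67, 3.13 and 2.94 (edgeR adjusted p = 0.325 for each). *Ncr1* reached an FPKM of 1 in the old libraries alone, so the filter admitted it only as higher in old ETP. The most abundant of the list per length, *Nkg7* and *Klrd1*, were not called, at -0.16 and 1.03, and *Nkg7* was the largest term of the sum in each library. An antibody to the NK marker NK-1.1 was part of the lineage mixture used for the sort. *Klrb1c*, which encodes this marker, was not tested. It was at 5.32 and 14.4 CPM in old ETP, against 0.702 and 1.44 CPM in young ETP. The part of these cells in the levels of Notch pathway genes was not tested. Markers of the sorting gate and of early progenitors summed to 3131 and 3650 CPM in old ETP, against 3151 and 3807 CPM in young ETP, with *Kit*, which encodes CD117, and *Ptprc* at log2 fold changes of 0.02 each. Of the tested markers of the other lists, DESeq2 called only *Cd3e*, of the DN2 and DN3 stage list. Estimates were higher in old ETP for 3 and lower for 6 of 9 tested myeloid markers (median -0.09), higher for 3 and lower for 2 of 5 plasmacytoid dendritic cell markers (median 0.08), and higher for 1 and lower for 1 of 2 B cell markers (median -0.02). The single tested erythroid marker was at -0.55. Of 8 thymic epithelial markers *Ccl25* alone was tested, at -1.10, and *Foxn1* and *Krt14* were at 0 in all 4 libraries. *Epcam*, which is not specific to the thymus, was at 2.24 and 10.7 CPM in old ETP, against 1.17 and 0.961 CPM in young ETP, and *Krt8* had 0 and 13 fragments in old ETP, against 1 and 0 in young ETP.

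**Figure D5:**
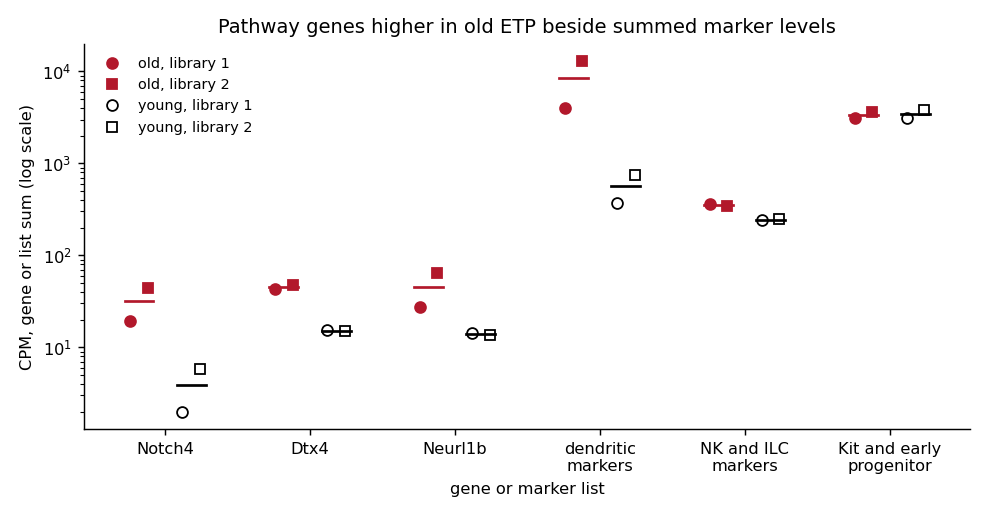
CPM (log scale) of *Notch4*, *Dtx4* and *Neurl1b* and the summed CPM of 3 marker lists in each library, with symbols as in the plot of levels by library. The sum of dendritic cell markers is 4035 and 12830 CPM in old and 375 and 753 CPM in young ETP, while the sum of gate and early progenitor markers overlaps between the ages.

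The genes most like *Notch1* and *Hes1* over the 4 libraries were found by the root mean square difference in log2 CPM, each gene centred on its own mean. For *Notch1* these were *4933404O12Rik*, *Nmnat3* and *Abtb2*, at differences of 0.036, 0.044 and 0.047. *Abtb2* was at 25.9 and 16.8 CPM in old ETP, against 35.5 and 34.6 CPM in young ETP. For *Hes1* they were *Sfr1*, *Ifrd2* and *Lonp1*, at differences of 0.013, 0.014 and 0.023. *Lonp1*, which encodes a mitochondrial protease, was at 56.5 and 33.3 CPM in old ETP, against 71.3 and 39.1 CPM in young ETP, so that it shared the higher level of library 1 at both ages. With 4 libraries and 10080 genes, close matches of this kind are a description only.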

How the data were processed

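The authors aligned paired reads with STAR 2.3.0 to GRCm38 (mm10) and ran cuffdiff (Cufflinks 2.1.1), HTSeq 0.5.4p3 and DESeq (study methods and submitters' notes). The deposited table, in the layout cuffdiff writes, holds, per gene symbol and library, estimated counts of fragments and FPKM scaled by the authors. It numbers the libraries of an age from 0, and they are called libraries 1 and 2 here. Which of them is which labelled sample of that age is not certain. Use of strand and treatment of reads with several alignments are not given in the sources used here. Rounded estimated counts were TMM-scaled and tested for age by quasi-likelihood in edgeR 4.0.16 (R 4.3.3), without other terms, for genes reaching an FPKM of 1 in 2 or more libraries. Adjustment was by Benjamini-Hochberg with a threshold of 0.05. DESeq2 1.42.0 and limma 3.58.1 on log2(FPKM + 1) or log2(FPKM + 0.1), other scalings and filters, a robust variance model, a replicate block by library number and omission of single libraries were alternatives. Omission leaves 1 library at that age, whose spread is then taken from the other age. The steps were tested on simulated data. Log2 CPM for likeness used an offset of 0.5. Positions come from GENCODE M21 and promoters from RefSeq, both GRCm38.

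The members and lists were chosen with earlier results of these data known. Named pathway genes are, per list, every gene past the threshold or otherwise the 2 with the highest mean FPKM and the 2 tested genes with the smallest unadjusted p. From marker lists they are the 2 tested markers with the highest mean FPKM and any that a result turns on. The comparison of *Notch1* with *Notch2* and the genes skewed by library number were chosen after their values were seen. So were *Rag2*, *Cd3e*, *Klrb1c*, *Epcam*, *Krt8*, *Hey1* and the ligand genes with few fragments. The chi-square per gene between libraries of an age was 83.3 in old and 70.9 in young ETP, well above sampling noise, so each was counted as a separate library.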

Additional observations from a re-analysis of the deposited data

How the results depend on the processing

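Counts of calls moved with the fit. Over all tested genes edgeR called 0, with 561 at an unadjusted p under 0.05, while DESeq2 called 225, edgeR with no filter on low values 508, and edgeR with a library left out 0 to 221 (221 without old library 1). Among the 50 other pathway genes the calls were 0 in edgeR, 2 in DESeq2, 4 with no filter and 0 to 2 with a library left out (2 without old library 1). Among the 9 Notch genes no setting but the replicate block gave a call. The library number was tried as a replicate block, although no source says that it marks a shared animal, batch or day. Deviations from the age means correlated across genes at 0.73 between libraries of equal number, where genes are not replicates. With this block edgeR called 777 genes in all, 578 higher and 199 lower in old ETP (7.71% of those tested), 4 of the other pathway genes, and 3 of the Notch genes, namely *Notch1* (log2 fold change -0.73, adjusted p = 0.0115), *Notch2* (0.54, adjusted p = 0.0262) and *Rbpj* (0.64, adjusted p = 0.0305). Upper-quartile scaling turned *Poglut1* to -0.033. On log2(FPKM + 1) limma turned *Maml1* to -0.10, *Mib2* to -0.061, *Poglut1* to -0.24, *Ep300* to -0.23 and *Dtx3l* to -0.25, and on log2(FPKM + 0.1) these were -0.12, -0.12, -0.28, -0.24 and -0.26. The cause was not tested, but the median of all genes was -0.27 and -0.33 on these scales. With a library left out, log2 fold changes that changed sign ran from -0.0082 to 0.36 for *Maml1*, -0.67 to 0.19 for *Hes1*, -0.076 to 1.58 for *Jag2*, -0.24 to 0.52 for *Mib2*, -0.18 to 0.031 for *Crebbp*, -0.075 to 0.028 for *Hdac1*, -0.48 to 0.11 for *Mfng*, -0.13 to 0.15 for *Poglut1*, -0.24 to 0.031 for *Pofut1*, -0.35 to 0.40 for *Ep300*, -0.31 to 0.37 for *Dtx3l*, -0.15 to 0.013 for *Psenen* and -0.36 to 0.026 for *Tcf7*. Those of *Notch1* ran from -1.06 to -0.39, *Notch2* from 0.31 to 0.77, *Rbpj* from 0.12 to 1.12, *Nrarp* from -1.06 to -0.07 and *Dtx1* from 0.44 to 0.76. Without changing sign, *Furin* ran from 0.023 to 0.89, *Maml3* from -0.56 to -0.046, *Cir1* from -0.93 to -0.20, *Igf1r* from -0.78 to -0.20, *Ccnd3* from 0.15 to 0.64, *Neurl1b* from 0.92 to 2.22 and *Notch4* from 2.36 to 3.98. Intervals and limits from fragment counts cover counting error only.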

Other observations

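Some genes followed the library number at both ages. At a minimum of 50 fragments in the libraries of number 1 and at most 1 in those of number 2, there were 5 genes of 23361, and 6 at the reverse. Those of number 1 were *Hey1*, *Id3*, *Ramp3*, *S100a8* and *S100a9*. *S100a9*, an abundant neutrophil gene, had 105 and 0 fragments in old ETP, against 219 and 0 in young ETP. *Id3*, which encodes an inhibitor of E proteins, had 51 and 1 fragments in old ETP, against 117 and 1 in young ETP. Those of number 2 were *Actc1*, *Myh7*, *Nppa*, *Tnnt2*, *Rbfox1* and *Tgoln2*. *Actc1*, the cardiac actin gene, had 0 and 140 fragments in old ETP, against 0 and 250 in young ETP, and *Nppa*, which encodes the atrial natriuretic peptide, had 1 and 98 in old and 1 and 180 in young ETP. Both thresholds were chosen after the values were seen, and no explanation was tested.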
